A study of Arabidopsis thaliana with 8 samples.

Results

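The response of etiolated wild type *Arabidopsis thaliana* seedlings to brassinolide (BL), the most active brassinosteroid (BR), was examined across all expressed loci. The comparison used 4 of the 8 RNA-Seq libraries of the study, chosen by their labels: 2 of wild type treated with BL and 2 of wild type given mock solution. Wild type was the Col-0 accession, and whole seedlings were harvested. All seedlings, the mock ones included, had grown in the dark for 5 days on medium that held 2 µM propiconazole (PPZ), which blocks BR biosynthesis, and were exposed to 100 nM BL or to mock for 4 hr. The remaining 4 libraries came from the auxin-insensitive mutant *iaa3*, which was given the same treatments. They entered the fit so that all groups shared 1 estimate of the spread. The number of seedlings pooled per library is not given in the sources used here. The labels do not say whether the replicates were separate cultures, so the p-values measure only the spread between these samples, which may be technical. Of the 33518 loci in the count table, 20415 passed the filter on low counts and were tested.

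BRs are plant steroid hormones that bind the receptor kinase BRI1 at the cell surface. The signal inactivates the kinase BIN2 and thereby allows the transcription factors BZR1 and BES1 (also called BZR2) to accumulate in the nucleus, where they repress genes with BR response elements and activate growth genes, many of them through E-box motifs such as the G-box and the HUD motif. In dark-grown seedlings the pathway is known for driving hypocotyl elongation, together with auxin, gibberellin (GA) and the phytochrome-interacting factors, and for repressing the enzymes that make BR.

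The promoters of 6 responsive genes are shown here because they hold different sets of these motifs, with the response of each gene described further on. Each sequence is the 250 bases before the gene start on the gene's own strand, 5′ to 3′, from RefSeq TAIR10.1. Capitals mark matches on either strand to the BR response elements CGTGCG and CGTGTG, the G-box CACGTG, the HUD motif CACATG and the auxin response elements TGTCTC and TGTCGG. *CPD*, a BR biosynthesis gene that fell, held 1 HUD match, 222 bases before the start (chr5:1706949-1707198, minus strand).
CPD: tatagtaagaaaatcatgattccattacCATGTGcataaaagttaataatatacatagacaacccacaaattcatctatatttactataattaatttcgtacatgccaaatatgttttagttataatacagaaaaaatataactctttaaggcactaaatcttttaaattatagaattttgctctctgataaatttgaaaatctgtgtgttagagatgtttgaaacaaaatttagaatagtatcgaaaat
*BEH2*, a *BZR1* homolog that fell, held 8 matches, among them 3 G-boxes at 115, 80 and 61 bases before the start, 3 overlapping or adjoining CGTGTG elements and 1 CGTGCG element at 135 bases (chr4:17334356-17334605, minus strand).
BEH2: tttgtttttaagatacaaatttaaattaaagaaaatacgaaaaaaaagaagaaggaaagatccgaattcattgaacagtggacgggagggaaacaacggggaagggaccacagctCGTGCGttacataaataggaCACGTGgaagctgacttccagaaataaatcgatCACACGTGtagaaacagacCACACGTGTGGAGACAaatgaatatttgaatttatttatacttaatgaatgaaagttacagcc
*IAA19*, an auxin-response gene that rose, held TGTCTC at 184, 145 and 128 bases before the start, a HUD motif at 177, a G-box at 70 and CGTGTG at 33 (chr3:5263751-5264000, plus strand).
IAA19: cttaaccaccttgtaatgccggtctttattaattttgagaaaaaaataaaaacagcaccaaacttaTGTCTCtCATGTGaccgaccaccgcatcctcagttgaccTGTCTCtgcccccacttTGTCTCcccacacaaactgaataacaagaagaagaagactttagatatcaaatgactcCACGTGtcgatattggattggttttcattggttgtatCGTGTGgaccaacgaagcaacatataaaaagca
*SAUR15*, a growth gene that rose, held HUD motifs at 225 and 106 bases and TGTCTC at 92 (chr4:18125807-18126056, plus strand).
SAUR15: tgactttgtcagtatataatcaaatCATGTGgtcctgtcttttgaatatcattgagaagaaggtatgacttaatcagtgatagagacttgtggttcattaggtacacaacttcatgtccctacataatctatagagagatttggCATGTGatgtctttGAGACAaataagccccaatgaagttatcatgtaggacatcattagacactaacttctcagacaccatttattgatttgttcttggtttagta
*EXLA2*, an expansin-like gene that rose, held a single CGTGTG at 99 bases (chr4:17979741-17979990, minus strand).
EXLA2: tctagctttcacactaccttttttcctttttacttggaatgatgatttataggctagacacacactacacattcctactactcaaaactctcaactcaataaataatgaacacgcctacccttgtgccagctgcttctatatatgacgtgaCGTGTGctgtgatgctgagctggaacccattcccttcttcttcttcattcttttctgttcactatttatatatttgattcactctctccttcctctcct
*ACS5*, an ethylene biosynthesis gene that rose, held TGTCTC at 174 bases and a HUD motif at 169 that shares 1 base with it (chr5:26332813-26333062, minus strand).
ACS5: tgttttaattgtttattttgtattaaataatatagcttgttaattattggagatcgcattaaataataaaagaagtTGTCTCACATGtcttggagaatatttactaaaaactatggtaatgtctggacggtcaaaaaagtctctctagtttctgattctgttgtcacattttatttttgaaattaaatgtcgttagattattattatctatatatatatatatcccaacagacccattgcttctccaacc
A match is a description of the letters in this window and does not show that a factor binds there.

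Total counts were 22542060 and 22353231 in the BL libraries and 20877248 and 23183988 in the mock libraries, and a count of 3, taken here as the detection floor, corresponded to 0.120 to 0.136 CPM (counts scaled to the TMM-adjusted library size) in these 4 libraries. The mock libraries stood further apart from each other than the BL libraries did. Of the 13166 genes whose mean log2 CPM was 3 or more, 2 differed at least 2-fold between the BL libraries and 42 between the mock libraries, 38 of which were higher in mock replicate 1. These included hypoxia genes, and seed storage transcripts also differed between the libraries. The 14 tested hypoxia genes summed to 464 and 531 CPM with BL, and to 1620 and 478 CPM in mock replicates 1 and 2. For 15 seed storage genes the sums were 457 and 337 CPM with BL and 969 and 156 CPM in mock. *PORA*, a protochlorophyllide oxidoreductase of dark-grown seedlings, was abundant in all 4 libraries, at 1114 and 1170 CPM with BL and 628 and 674 CPM in mock. The light-induced genes *RBCS1A* and *CAB1* were not low either. *RBCS1A* had 54378 and 56295 counts with BL and 46314 and 58148 in mock. *CAB1* had 46889 and 39524 counts with BL against 28648 and 45072 in mock. Their relatives *RBCS1B* and *CAB2* were far lower. *RBCS1B* had 419 and 342 counts with BL and 171 and 284 in mock, and *CAB2* 445 and 298 with BL and 166 and 181 in mock. How reads shared by similar copies were assigned is not given in the sources used here.

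With BL, 1726 genes rose and 1199 fell, by the criterion of a 1.5-fold or larger change with p below 0.01, unadjusted, in edgeR's quasi-likelihood test. These were 8.45% and 5.87% of the tested genes, and 14.3% together. All 2925 also had a Benjamini-Hochberg adjusted p under 0.05 in the same edgeR test, the highest being 0.0348. In none of them did the BL and mock libraries overlap, as was the case for 65.6% of all tested genes. More genes rose than fell at the larger fold changes. At least 4-fold changes were seen in 290 genes that rose and 111 that fell, and at least 16-fold changes in 40 and 20. In 33 of the genes that rose every mock library was at or below the floor, and in 23 of those that fell every BL library was. The share of rises among called genes, 59.0%, depended on the scaling of the libraries. With library size alone the median of all genes moved by −0.10 on the log2 scale, and 1396 genes rose and 1678 fell, so that rises made up 45.4%. A move of that size is too small to turn a call of 1.5-fold or more into the opposite call. That none of the 2925 genes did so therefore carries no information.

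**Figure D1:**
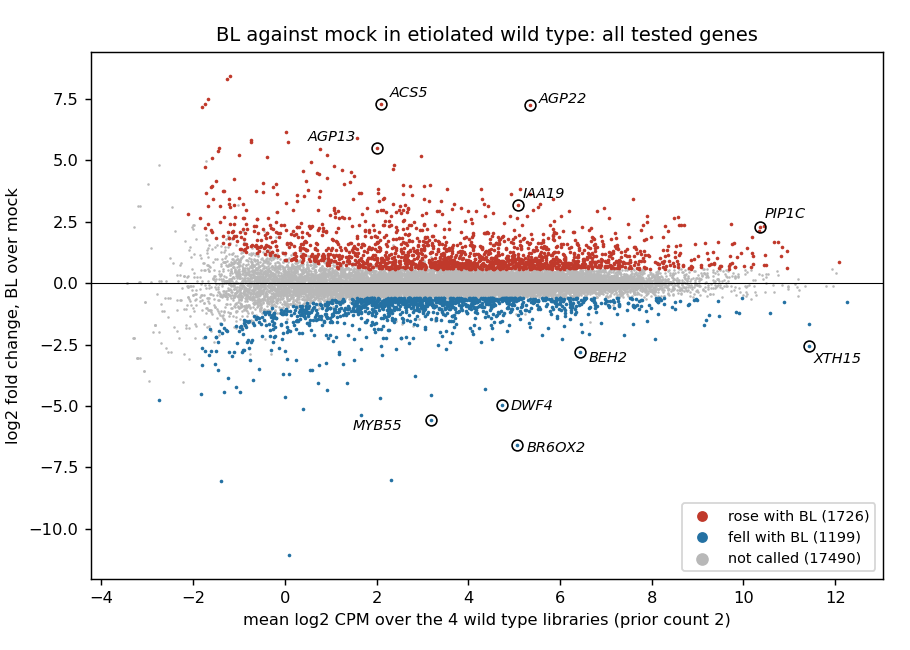
Log2 fold change of BL over mock against the mean log2 CPM of the 4 wild type libraries for the 20415 tested genes, with the 1726 that rose in red, the 1199 that fell in blue and the others in grey. The circled genes are described in the text, and values of genes near the floor depend on the prior count and are not bounds.

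The genes of BR synthesis fell furthest as a group. Of 7 tested, 6 fell and none rose, with a median log2 fold change of −4.06, against −0.0097 over all tested genes. *BR6OX2*, which encodes the oxidase of the last steps to BL, had 3.31 and 3.44 CPM with BL and 329 and 321 CPM in mock. *DWF4*, the hydroxylase of the rate-limiting step, had 4.97 and 4.38 CPM with BL against 151 and 143 CPM in mock, and *CPD*, a further P450 of the pathway, 124 and 121 CPM with BL against 623 and 556 CPM in mock. All BL libraries lay well below all mock libraries for these genes. The log2 fold changes were −6.59 ± 0.12 (SE) for *BR6OX2*, −4.98 ± 0.12 for *DWF4*, −4.67 ± 0.17 for *CYP90D1*, −4.06 ± 0.21 for *BR6OX1*, −2.26 ± 0.09 for *CPD* and −1.42 ± 0.09 for *ROT3*, with adjusted p of at most 8.05e-07 by edgeR's quasi-likelihood test (Benjamini-Hochberg). *DET2*, the steroid reductase of an earlier step, had a log2 fold change of −0.24 ± 0.09 and was not called. Of 14 sterol biosynthesis genes, which act before the BR-specific steps, 4 rose and none fell. *SMT3*, a sterol methyltransferase, rose to 3484 and 3126 counts with BL, against 1046 and 1002 in mock, by 1.76 ± 0.09 on the log2 scale. *FK*, a sterol reductase, rose by 1.21 ± 0.11.

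BR-inactivating enzymes moved in the opposite direction to the biosynthesis genes. Of 5 tested, 3 rose. *BAS1*, a P450 that hydroxylates active BRs, had 1228 and 1135 counts with BL and 315 and 337 in mock, a log2 fold change of 1.93 ± 0.09. *BEN1* rose by 1.00 ± 0.08 and *SOB7*, a relative of *BAS1*, by 0.81 ± 0.07, with adjusted p of at most 6.69e-06 by edgeR's quasi-likelihood test (Benjamini-Hochberg). The glucosyltransferase gene *UGT73C5* (0.11 ± 0.15) and the acyltransferase gene *BAT1* (AT4G31910, −0.42 ± 0.17) were not called, although *BAT1* passed as lower, at −0.60, without mock replicate 1.

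Among 24 genes of BR perception and signal transduction, 2 rose and 5 fell. These were 8.33% and 20.8%, beside 8.45% and 5.87% of all tested genes. Of the 2 that rose, *BSU1* was not called with DESeq2, at a log2 fold change of 2.77. The largest fall was that of *BEH2*, a homolog of *BZR1*, with 32.7 and 32.6 CPM with BL and 243 and 212 CPM in mock. Its log2 fold change was −2.80 ± 0.08. Another homolog, *BEH4*, rose by 0.92 ± 0.09, and *BZR1* itself (0.43 ± 0.08) and *BES1* (0.18 ± 0.06) stayed under the 1.5-fold threshold. The receptor genes *BRL3* and *BRL1* fell, with log2 fold changes of −2.14 ± 0.11 and −1.44 ± 0.16. *BRI1* had 189 and 157 CPM with BL and 294 and 269 CPM in mock and fell by 0.70 ± 0.09, a call that was lost, at −0.57, without BL replicate 2. *MYBL2*, a transcriptional repressor that works with BES1, fell by 1.63 ± 0.07. Of the other components, the kinase genes *BIN2* (0.19 ± 0.07) and *BAK1* (−0.12 ± 0.11) were not called.

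**Figure D2:**
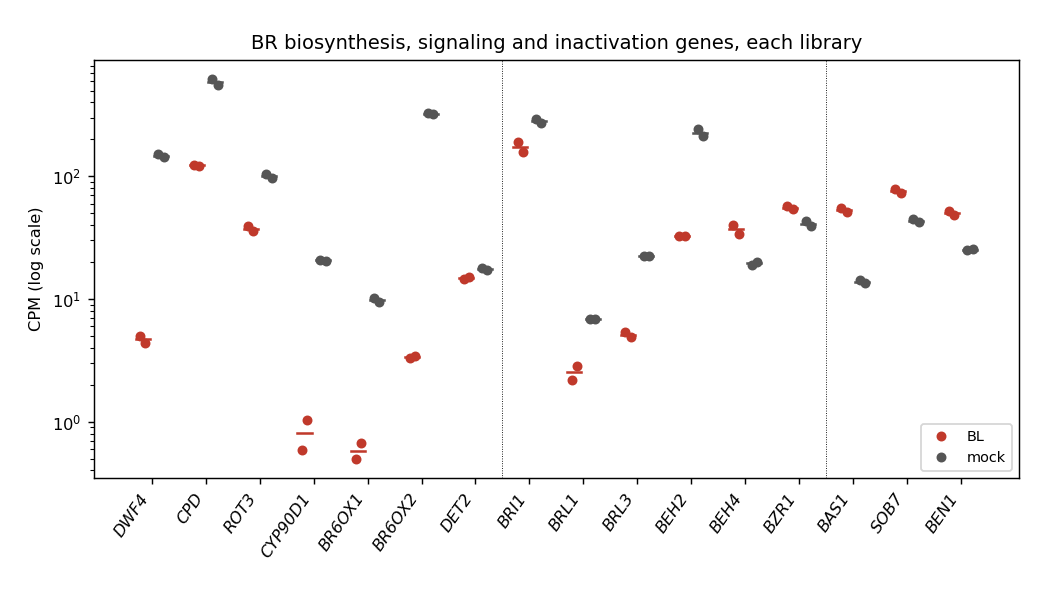
CPM on a log axis of BR biosynthesis genes (*DWF4* to *DET2*), signaling genes (*BRI1* to *BZR1*) and inactivation genes (*BAS1* to *BEN1*) in the 2 BL libraries (red) and the 2 mock libraries (grey), with lines at the group means. *BR6OX2* lies at 3.31 and 3.44 CPM with BL and at 329 and 321 CPM in mock, and *DET2* differs least among the biosynthesis genes.

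The helix-loop-helix (HLH) factors through which BR, GA and light control elongation mostly rose where they were called. Of 22 tested, 9 rose and 3 fell, and the median log2 fold change was 0.35. Of those that rose, *BNQ2* was not called with DESeq2, at 2.56. Its log2 fold change lay between 2.16 and 2.89 when 1 library was left out. The PRE proteins are small HLH proteins without DNA-binding activity that promote elongation by sequestering inhibitors. *PRE6* had 42.3 and 41.6 CPM with BL and 11.1 and 9.57 CPM in mock (2.03 ± 0.11 on the log2 scale), *PRE5* rose by 1.84 ± 0.18 and *PRE1*, with 48 and 65 counts with BL and 10 and 14 in mock, by 2.30 ± 0.37. *PRE3* went the other way, with 10 and 25 counts with BL and 49 and 64 in mock. Its log2 fold change was −1.60 ± 0.37, or −2.40 without BL replicate 2, and it was not called, at −1.09, without BL replicate 1. Of the genes for inhibitory HLH proteins, *IBH1*, a repressor of elongation that PRE1 binds, fell by 1.15 ± 0.07, whereas *AIF1* (1.82 ± 0.13), *PAR2* (2.06 ± 0.15) and *PAR1* (0.97 ± 0.08) rose. *BEE1*, a bHLH gene named for its BR-enhanced expression, rose by 1.12 ± 0.09. *BEE2* and *BEE3* were not called, with values of 0.34 ± 0.08 and 0.16 ± 0.08, and neither was *HBI1*, at −0.07 ± 0.07.

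The *SAUR* genes, many of which are induced by auxin, gave calls in both directions. SAUR proteins promote cell expansion by inhibiting phosphatases that hold back the plasma membrane proton pump. There were 80 *SAUR* genes among the loci, of which 68 were tested, and 38 of these rose and 9 fell. Their median log2 fold change was 1.56, or 1.44 with genes at the floor set to their bound. *SAUR15* had 218 and 231 counts with BL and 12 and 5 in mock. *SAUR9* had 800 and 626 counts with BL and 56 and 41 in mock, a rise of 3.95 ± 0.19. For *SAUR15* the log2 fold change was 4.77 ± 0.28, and 5.62 without mock replicate 1. *SAUR28*, *SAUR27* and *SAUR68* (AT1G29490) rose by 4.37 ± 0.30, 4.12 ± 0.25 and 4.03 ± 0.24, and the value of *SAUR28* lay between 3.77 and 5.26 when 1 mock library was left out. Many *SAUR* genes are short tandem copies, and reads that match several of them cannot be assigned with certainty, since the handling of such reads is not given in the sources used here. Where at least 10 counts were required in each of the 8 libraries, 6 *SAUR* genes rose and 5 fell, with a median of 0.10, as that filter removes members that are low in any group.

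Aux/IAA proteins repress auxin response and are themselves induced by auxin. Of 26 tested genes of the family, 9 rose and 2 fell, and the median log2 fold change was 0.10. *IAA19*, a regulator of hypocotyl growth, had 106 and 98.7 CPM with BL and 10.9 and 11.6 CPM in mock, and rose by 3.18 ± 0.11 on the log2 scale. *IAA3*, the gene that carries the mutation in the other genotype of the study, rose in wild type by 1.47 ± 0.09 and *IAA34* by 1.60 ± 0.21. *IAA29* fell by 1.28 ± 0.14. GH3 enzymes conjugate auxin to amino acids, and 5 of 9 tested *GH3* genes rose and 2 fell. *GH3.3* (1.43 ± 0.16) and *GH3.17* (0.93 ± 0.07) were among those that rose, while *GH3.6* (−1.32 ± 0.10) and *GH3.5* (−1.10 ± 0.08) fell. The highest adjusted p of these *IAA* and *GH3* genes was 0.000158, by edgeR's quasi-likelihood test (Benjamini-Hochberg).

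Among auxin transcription factor genes only falls were called, carrier genes were called in both directions, and receptor genes were not called. None of 15 tested *ARF* genes, which encode the auxin-regulated transcription factors, rose and 3 fell. *ARF6* had 101 and 90.9 CPM with BL and 193 and 183 CPM in mock, and *ARF8* had 23.3 and 19.3 CPM with BL and 47.1 and 42.3 CPM in mock. These are log2 fold changes of −0.97 ± 0.09 and −1.07 ± 0.10. The third, *MP*, lay at the fold threshold (−0.59 ± 0.11) and was lost without either BL library, with RLE scaling, with DESeq2, with either other low-count filter, with the wild type libraries alone and, at −0.38, without mock replicate 2. No *TIR1/AFB* auxin receptor gene of 6 was called, with log2 fold changes between −0.10 and 0.38. Of 20 genes of auxin carriers and their regulators 2 rose and 4 fell, or 5 rose without BL replicate 2. Those that rose were the kinase genes *WAG1* and *WAG2*, whose products act on PIN auxin carriers. *WAG1* had 188 and 134 counts with BL and 38 and 41 in mock, and *WAG2* had a log2 fold change of 1.65 ± 0.18, while the influx carrier gene *LAX3* (−1.75 ± 0.06) and the efflux carrier gene *ABCB1* (−0.96 ± 0.07) were among those that fell. Of 9 auxin synthesis genes 1 rose and 1 fell, the fall being lost when any of the 4 libraries was left out. *YUC3*, the gene that rose, had 9.23 and 11.8 CPM with BL and 2.18 and 2.07 CPM in mock.

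Cell wall genes changed in both directions, and enzymes of the same family were found on both sides. XTH enzymes cut and rejoin xyloglucan, the polymer that tethers cellulose in the primary wall. Of 29 tested *XTH* genes, 11 rose and 7 fell. *XTH17* had 2652 and 2655 counts with BL against 353 and 364 in mock (2.96 ± 0.10 on the log2 scale), and *XTH22*, also known as *TCH4*, had 501 and 511 CPM with BL against 102 and 95.1 CPM in mock (2.36 ± 0.09). *XTH15*, however, had 1090 and 1193 CPM with BL and 6958 and 6493 CPM in mock, the largest loss of CPM among the called genes named by rule, and fell by 2.56 ± 0.08. *XTH32* (−2.67 ± 0.14) and *XTH7* (−2.66 ± 0.22) fell too. The summed level of the family was 6108 and 6054 CPM with BL and 9930 and 9442 CPM in mock.

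Expansins loosen the wall without cutting it. Among 19 tested alpha-expansin genes 6 rose and 2 fell, the second number being 1 without BL replicate 2. *EXPA8* had 71.4 and 57.9 CPM with BL and 7.48 and 4.55 CPM in mock and rose by 3.44 ± 0.19, while *EXPA10*, *EXPA1* and *EXPA14* rose by between 1.55 and 1.75 on the log2 scale. Of 8 beta-expansin and expansin-like genes, 5 rose, led by *EXLA2*, with 133 and 138 CPM with BL against 14.7 and 16.6 CPM in mock (3.11 ± 0.08). *EXLA1* had 231 and 232 CPM with BL and 60.1 and 61.2 CPM in mock (1.93 ± 0.07). The adjusted p of these expansin genes were at most 4.59e-05, that of *EXPB1*, by edgeR's quasi-likelihood test (Benjamini-Hochberg).

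Arabinogalactan proteins (AGPs) are glycoproteins of the cell surface, and their genes rose far more often than they fell. Of 43 tested, 23 rose and 4 fell, and the median log2 fold change was 0.95. Without BL replicate 2 the number that fell was 2. *AGP22*, which encodes a very short AG-peptide, had 496 and 492 CPM with BL and 4.04 and 2.55 CPM in mock. It was the largest rise among genes whose mean log2 CPM was 3 or more, at 7.24 ± 0.16, or 151-fold. *AGP13* had 23.8 and 26.2 CPM with BL and 0.544 and 0.558 CPM in mock, *AGP4* 642 and 642 CPM with BL and 72.1 and 47.7 CPM in mock, and *AGP21* 304 and 315 CPM with BL and 41.1 and 38.6 CPM in mock. The summed level of the family was 6059 and 6049 CPM with BL and 1807 and 1713 CPM in mock.

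Myo-inositol oxygenases begin a route to UDP-glucuronate, a precursor of pectin and hemicellulose sugars. Of 6 tested genes of UDP-glucuronate supply 4 rose and none fell. *MIOX4* had 46.8 and 45.3 CPM with BL and 1.41 and 1.12 CPM in mock, a log2 fold change of 5.19 ± 0.15, and *MIOX2* had 918 and 851 CPM with BL and 173 and 168 CPM in mock, a log2 fold change of 2.38 ± 0.08. Pectin-modifying families leaned the same way. Among pectin methylesterase and inhibitor genes 13 of 57 rose and 3 fell, and among genes of the pectin lyase fold 16 of 52 rose and 4 fell. AT3G07010, of the pectin lyase fold, had 207 and 188 CPM with BL and 43.6 and 37.8 CPM in mock, and AT4G25260, an inhibitor-family gene, rose by 1.84 ± 0.06 on the log2 scale. Of 20 cellulose-synthase-like genes 6 rose and none fell, including the xyloglucan backbone synthases *CSLC04* (1.07 ± 0.09) and *CSLC12* (1.34 ± 0.15). *CESA5*, which rose by 0.93 ± 0.10, was the only one called of the 6 cellulose synthase genes of the primary wall, and each of BL replicate 2 and mock replicate 1 raised the number to 2 when left out.

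Other surface genes moved in both directions. Of 22 extensin and proline-rich protein genes 5 rose and 4 fell, or 2 fell without mock replicate 1 or without either BL library. *LRX2* and *PRP2* had log2 fold changes of 3.83 ± 0.21 and 3.44 ± 0.20, and *PERK10*, a receptor-like kinase gene, one of −1.25 ± 0.10. Among 15 *RALF* peptide genes and genes of their receptor kinase family 5 rose and 4 fell, or 2 fell without BL replicate 1. *THE1*, a receptor kinase gene that monitors wall integrity, rose by 1.31 ± 0.09, and the peptide hormone genes *RALFL22*, *RALFL24* and *RALFL33* by 1.99 ± 0.07, 1.29 ± 0.13 and 1.11 ± 0.08. *RALF23*, named after its values were seen, fell by 0.92 ± 0.08. Of the 7 *EXORDIUM*-family genes, *PHI-1* and *EXL3* rose and *EXL2*, with 310 and 315 CPM with BL and 959 and 1067 CPM in mock, fell by 1.70 ± 0.08.

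**Figure D3:**
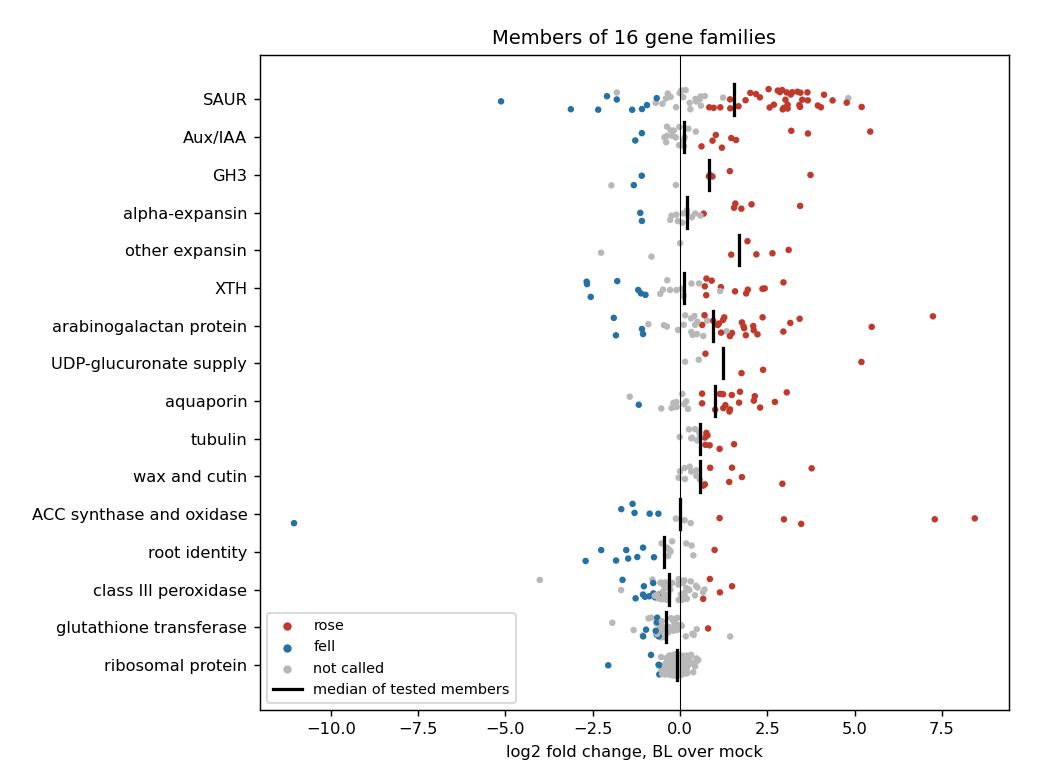
Log2 fold change of BL over mock for each tested member of 16 gene families, 1 point per gene (red rose, blue fell, grey not called), with a black bar at the family's median. The *SAUR*, arabinogalactan protein and aquaporin points lie mostly to the right of 0, *XTH* and ACC synthase and oxidase genes spread to both sides, and most ribosomal protein genes lie close to 0.

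Aquaporins, the water channels of the plasma membrane and the vacuole, showed the highest share of rises among the lists of at least 10 tested genes. Of 29 tested, 17 rose and 1 fell, with a median log2 fold change of 1.01. *PIP1C* had 3040 and 2814 CPM with BL and 604 and 591 CPM in mock, and *PIP2A* had 2754 and 2678 CPM with BL and 641 and 592 CPM in mock. Both are plasma membrane channels and both were among the 5 genes that gained most CPM. The vacuolar channel gene *TIP2;3* rose by 2.72 ± 0.17 and *RD28*, a further plasma membrane channel, by 3.06 ± 0.11. Summed over the family, the level was 24957 and 24085 CPM with BL and 10955 and 11045 CPM in mock. No gene of 9 for the plasma membrane proton pump was called, with log2 fold changes between −0.58 and 0.19, although 1 fell without BL replicate 2.

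Tubulin and cuticle genes were called almost only as rises, and sugar genes in both directions. Among 15 tubulin genes 7 rose and none fell, with a median of 0.57. *TUB8* had 182 and 184 CPM with BL and 60.6 and 64.8 CPM in mock, and *TUB1*, a tubulin gene of elongating hypocotyls, rose by 1.13 ± 0.09. KCS enzymes make the very-long-chain fatty acids of waxes, and 7 of 17 *KCS* genes rose and 1 fell, or 2 without mock replicate 1. *KCS9* rose by 1.95 ± 0.07. Of 17 wax and cutin genes 8 rose and none fell, among them the cutin hydroxylase genes *CYP86A4* (2.93 ± 0.29) and *CYP86A2* (1.77 ± 0.14), the acyltransferase gene *GPAT8* (1.41 ± 0.11) and *LTPG1*, a gene of lipid export (1.49 ± 0.13). Of 36 starch and sugar genes 7 rose and 3 fell, or 1 fell without mock replicate 1, and the median log2 fold change was 0.0007. The monosaccharide transporter gene *STP1* had 3141 and 2987 CPM with BL and 889 and 1035 CPM in mock, and the cytosolic invertase gene *CINV1* had 789 and 717 CPM with BL and 353 and 354 CPM in mock. *DIN10*, of the raffinose synthase family, gained most CPM of the called genes named by rule, with 6136 and 5567 CPM with BL and 3514 and 3010 CPM in mock.

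ACC synthases catalyse the committed step of ethylene synthesis and ACC oxidases the last one, and their genes changed strongly in both directions. Of 14 tested, 5 rose and 6 fell. *ACS5* had 1135 and 987 counts with BL and 6 and 8 in mock, a log2 fold change of 7.29 ± 0.25, and *ACS8* rose by 3.47 ± 0.22. The most extreme members were low in one group and lay outside the naming rule, so they were singled out after their values were seen. *ACS4* had 41 and 48 counts with BL and 0 and 0 in mock, at least 15.6-fold higher against the floor of 3 counts per library. *ACS11* had 0 and 0 counts with BL and 269 and 307 in mock, at least 91.1-fold lower against the same floor.

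**Figure D4:**
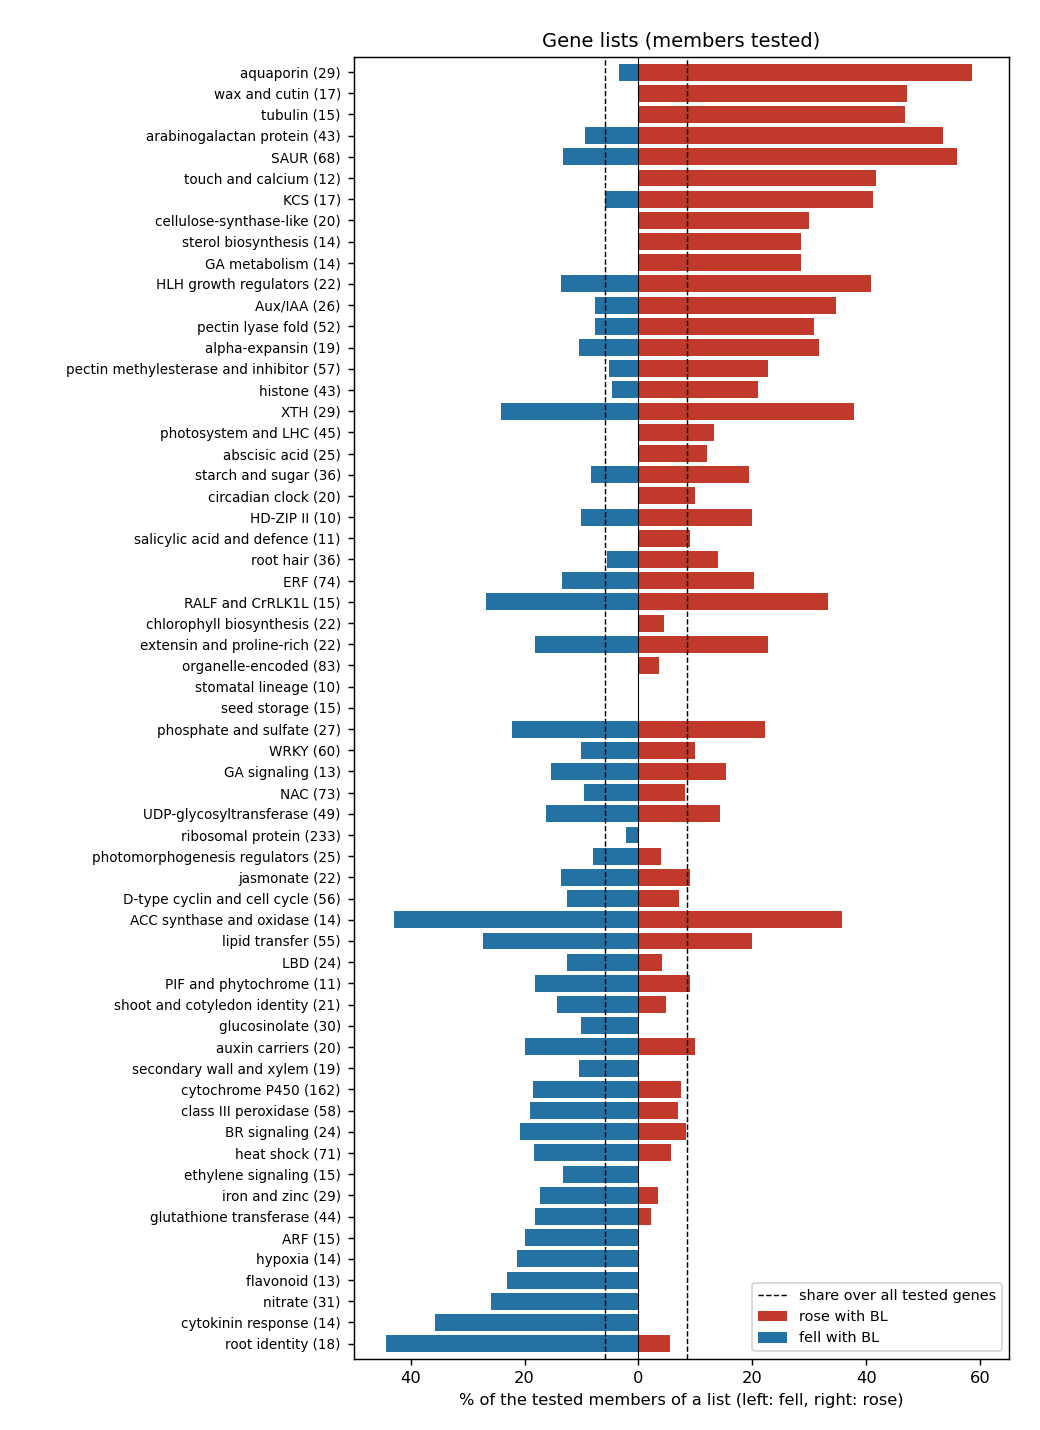
Share of the tested members of each gene list that rose (right, red) or fell (left, blue) with BL, for lists of at least 10 tested members, with dashed lines at the shares over all tested genes, 8.45% and 5.87%. Aquaporin genes stand at the top, with 17 of 29 that rose, and root identity genes at the bottom, with 8 of 18 that fell.

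Among the lists of other hormones, 28.6% of GA metabolism genes rose and 35.7% of cytokinin-response genes fell, beside 8.45% and 5.87% of all tested genes. For ethylene signaling 13.3% fell, and for GA signaling 15.4% rose and 15.4% fell. Among 15 ethylene signaling genes none rose and 2 fell, or 1 without mock replicate 1. *HLS1*, which is required for the apical hook of dark-grown seedlings, had 23.7 and 26.6 CPM with BL and 53.8 and 45.6 CPM in mock and fell by 0.98 ± 0.10. Of 14 GA metabolism genes 4 rose and none fell. *GA2OX6*, a GA-deactivating oxidase gene, rose by 1.62 ± 0.10. Of 13 GA signaling genes 2 rose and 2 fell, or 1 rose without BL replicate 1 or without mock replicate 2. The GA-regulated peptide gene *GASA6* rose by 1.44 ± 0.10, and its relative *GASA4* fell to 1056 and 962 CPM with BL, against 2410 and 2237 CPM in mock. Cytokinin-response genes went down where they were called, with 5 of 14 that fell and none that rose. The feedback regulator genes *ARR6* (−1.59 ± 0.17) and *RR3* (−0.91 ± 0.08) fell, and *CKX5*, a gene of cytokinin breakdown, fell by 1.42 ± 0.11. Of 25 abscisic acid genes 3 rose (12%), and of 22 jasmonate genes 2 rose (9.09%) and 3 fell (13.6%). Of 11 salicylic acid and defence genes 1 rose (9.09%). Of the abscisic acid genes 1 rose without BL replicate 1, and 2 fell without mock replicate 1 and 1 without mock replicate 2. Of the jasmonate genes 1 rose without either BL library or without mock replicate 1, and 0 fell without BL replicate 2 and 1 without mock replicate 1.

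Shares of rises were 13.3% for photosystem and light-harvesting genes, 10% for clock genes and 4.55% for chlorophyll biosynthesis genes. Among PIF and phytochrome genes 9.09% rose and 18.2% fell, beside 8.45% and 5.87% of all tested genes. Of 11 PIF and phytochrome genes, *PIF5* rose by 0.99 ± 0.08, and *PIL2* (−1.01 ± 0.08) and *PHYB* (−0.74 ± 0.06) fell. Among 45 nuclear genes of the photosystems and light-harvesting complexes 6 rose and none fell. Their log2 fold changes lay between 0.0046 and 1.17, with a median of 0.36. Without mock replicate 2 the number that rose was 16, and the summed levels of 16635 and 15995 CPM with BL and 11453 and 14526 CPM in mock placed mock replicate 1 lowest. Several of these genes have near-identical copies. *PORA* was the only one of 22 chlorophyll biosynthesis genes called, with a log2 fold change of 0.81 ± 0.09, and without mock replicate 2 the number was 2. Of 20 clock genes only *RVE1* (1.00 ± 0.07) and *BOA* (0.83 ± 0.10) were called, both as rises.

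Markers of tissues were read in the same way. Among 18 root identity genes 8 fell and 1 rose, the rise being lost when any of the 4 libraries was left out. *CASP4* and *CASP5*, which encode proteins of the Casparian strip of the endodermis, fell, with log2 fold changes of −2.26 ± 0.21 and −1.83 ± 0.14, as did *AIL6*, a relative of the root stem cell factors (−1.54 ± 0.13). The summed level of the list was 2349 and 2028 CPM with BL and 2931 and 3323 CPM in mock. In bulk samples, fewer cells of a type and less RNA per cell cannot be told apart. Root hair genes did not share this pattern, as 5 of 36 rose and 2 fell. These were 13.9% and 5.56%, beside 8.45% and 5.87% of all tested genes. *GL2* and *MYB66* (*WEREWOLF*), which specify the non-hair fate of the root epidermis, rose by 1.54 ± 0.14 and 1.42 ± 0.26. No gene of 10 for the stomatal lineage was called, with edgeR's log2 fold changes between −1.15 and 0.48, and 1 of them rose without BL replicate 1. Of 19 secondary wall and xylem genes 2 fell, with 4 without BL replicate 1 and 0 without BL replicate 2 or without mock replicate 2, where 1 rose.

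The values of hypoxia genes depended on mock replicate 1. Of 14 tested, 3 fell and none rose, and the median was −1.04. *AT4G33070*, a pyruvate decarboxylase gene of fermentation, had 10.5 and 9.69 CPM with BL and 91.7 and 14.6 CPM in mock. *HB1*, a hemoglobin gene induced by low oxygen, had 905 and 1225 counts with BL and 4175 and 1380 in mock. In each case mock replicate 1 stood far above the other 3 libraries, which lay close together. Without mock replicate 1 the log2 fold changes were −0.53 for AT4G33070 and −0.20 for *HB1*, and 0 genes of the list were called. *HB1* was also not called by DESeq2, with a robust spread or with the wild type libraries alone, and AT4G33070 was not called with a robust spread. The count was also 0 without either BL library, 14 without mock replicate 2 and 7 when scaled by library size alone.

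Heat shock genes and several metabolic families were called more often as falls. Of 71 heat shock genes 13 fell and 4 rose, or 1 without BL replicate 1 and 2 without either mock library. The chaperone gene *HSP70* had 80.5 and 81.5 CPM with BL and 157 and 149 CPM in mock. Among 162 P450 genes, the BR enzymes included, 30 fell and 12 rose. These were 18.5% and 7.41%, beside 5.87% and 8.45% of all tested genes. Class III peroxidases act on the wall and its lignin, and 11 of 58 fell and 4 rose. *PER64*, whose product takes part in Casparian strip formation, fell by 1.27 ± 0.09. Of 44 glutathione transferase genes 8 fell and 1 rose, or 5 and 3 without mock replicate 2, and *GSTF2* had 246 and 259 CPM with BL and 553 and 497 CPM in mock. Library size scaling raised the falls of this family to 14.

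Nitrate assimilation went down in part, as 8 of 31 genes fell and none rose. *NIA1*, a nitrate reductase gene, had 163 and 156 CPM with BL and 334 and 361 CPM in mock, and *NIR1*, which encodes the next enzyme, had 44.1 and 42.7 CPM with BL and 92.6 and 89.5 CPM in mock. Both fell, with log2 fold changes of −1.12 ± 0.13 and −1.07 ± 0.07. Of 13 flavonoid genes 3 fell and none rose, or 5 fell without mock replicate 1 and 1 rose without BL replicate 1, and *PAL2*, the entry enzyme of phenylpropanoid synthesis, fell by 0.81 ± 0.08. Among cell cycle genes 7 of 56 fell and 4 rose, or 2 without either BL library. *KRP2*, an inhibitor of cyclin-dependent kinases, fell by 2.01 ± 0.11, and *CYCD3;3*, a cyclin gene, fell by 0.96 ± 0.10.

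The lists that follow are read against the shares over all tested genes, 8.45% for rises and 5.87% for falls. Of 233 ribosomal protein genes none rose and 5 fell, which is 2.15%, and the log2 fold changes had a median of −0.08. The count of falls was 0 without mock replicate 2, 1 without BL replicate 1, where 1 gene rose, and 3 without BL replicate 2, and 9 when scaled by library size alone. Among 43 histone genes 9 rose and 2 fell, with 5 rises without mock replicate 1 and 3 when scaled by library size alone. In shares, 20.9% of the histone genes rose and 4.65% fell. Of 60 *WRKY* genes 6 rose (10%) and 6 fell (10%), and of 73 *NAC* genes 6 rose (8.22%) and 7 fell (9.59%). *WRKY70*, a regulator of defence, had 18.5 and 17.6 CPM with BL and 4.99 and 4.43 CPM in mock. Touch-inducible genes leaned upward, as 5 of 12 rose and none fell, among them *TCH3*, a calmodulin-like gene, with 689 and 701 CPM with BL and 139 and 140 CPM in mock. Without mock replicate 2, 1 of these genes fell.

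Several of the largest changes lay outside the lists. *MYB55*, a MYB transcription factor gene, had 1.30 and 1.25 CPM with BL and 61.6 and 59.9 CPM in mock, a log2 fold change of −5.57 ± 0.10. AT5G66080, of the protein phosphatase 2C family, fell by 4.54 ± 0.13, and AT5G22580, with a stress-responsive A/B barrel domain, fell by 4.30 ± 0.16. *RGF6*, a peptide hormone gene, had 108 and 103 CPM with BL and 8.75 and 8.53 CPM in mock, and rose by 3.61 ± 0.09. AT5G45670, a GDSL lipase gene, rose by the same amount, and AT5G24580, with a heavy-metal-associated domain, by 3.82 ± 0.11. AT1G62480, annotated as similar to a vacuolar calcium-binding protein, had 3123 and 3181 CPM with BL and 685 and 575 CPM in mock. *CAT3*, a catalase gene, lost 1.71-fold, with 3859 and 3599 CPM with BL and 6381 and 6361 CPM in mock. The adjusted p of the genes in this paragraph were at most 2.88e-05 by edgeR's quasi-likelihood test (Benjamini-Hochberg).

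The motifs introduced with the promoter sequences were counted in windows of 250 bases before to 50 bases after the start, on both strands, in 1721 genes that rose, 1196 that fell and all 32691 RefSeq promoters. BR response elements of either form were found in 161 promoters of genes that fell (13.5%), in 154 of genes that rose (8.95%), in 8.58% of those of all tested genes and in 7.72% of all promoters. The HUD motif CACATG showed the opposite order, with 344 of the 1721 promoters of genes that rose, 154 of genes that fell (12.9%), 12.9% of all tested genes and 12.7% of all promoters. G-boxes were found in 9.18% of the genes that rose, 8.61% of those that fell, 8.80% of all tested genes and 6.92% of all promoters. Auxin response elements of either form were in 21.2% of the genes that rose, 19.4% of those that fell, 18.6% of all tested genes and 18.5% of all promoters. The element CGTGTG can overlap a G-box by 4 letters, as in the *BEH2* promoter, so these counts are not independent. The TATA sequence TATAAA, taken for comparison, was in 54.6% of the promoters of genes that rose, 56.6% of those that fell, 51.5% of all tested genes and 50.1% of all promoters. These shares are descriptions without a test, and among genes that changed at least 2-fold the BR response element share was 13.3% for falls and the HUD share 22.6% for rises.

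**Figure D5:**
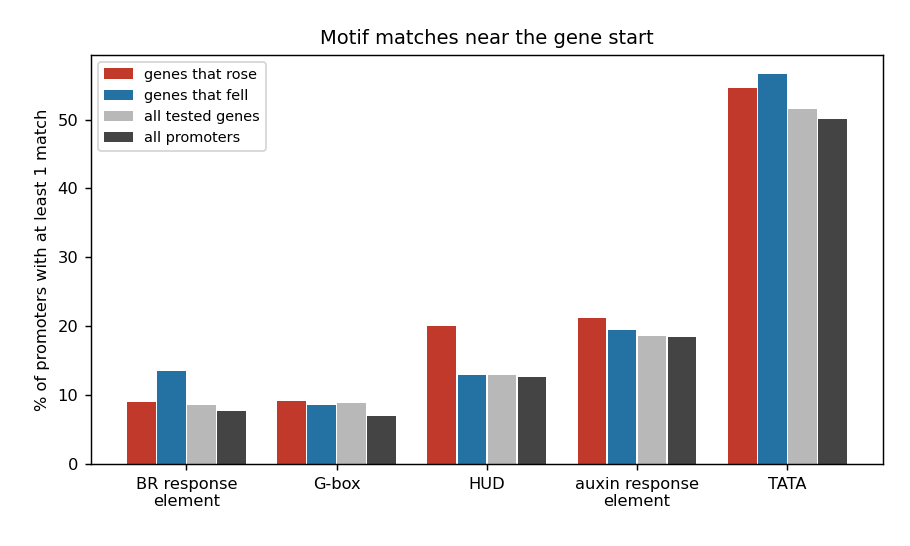
Percentage of promoters with at least 1 match to each motif, from 250 bases before to 50 after the gene start, among genes that rose (red), genes that fell (blue), all tested genes (light grey) and all promoters (dark grey). BR response elements are most frequent among genes that fell, at 13.5%, and the HUD motif among genes that rose, in 344 of 1721.

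To ask whether genes responded unlike those of *iaa3*, the term for genotype by BL was tested. Of the 20415 genes, 3589 (17.6%) had an adjusted p under 0.05 by edgeR's quasi-likelihood test (Benjamini-Hochberg), with 2346 without BL replicate 1 and 2293 without BL replicate 2 of wild type. In 2031 of the 3589 the log2 fold change was more positive in wild type than in *iaa3* and in 1558 it was more negative. Of the genes that rose in wild type 1058 were among these 3589, and of those that fell 458. The 2 calls share the wild type libraries.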

How the data were processed

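RNA-Seq libraries were made with a TruSeq RNA kit, and the authors deposited raw read counts per locus for 33518 loci in 8 libraries, 2 for each of 4 groups. The submitters' processing notes name CASAVA 1, TopHat, HTSeq and the build TAIR9. Strand, the annotation release and the treatment of reads that match several loci are not given in the sources used here.

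Counts were analysed with edgeR 4.0.16 in R 4.3.3 (limma 3.58.1): filterByExpr by group, TMM factors, and 1 quasi-likelihood model over all 8 libraries with 1 coefficient per group. Genes were called at 1.5-fold or more and an unadjusted p under 0.01, with Benjamini-Hochberg adjustment over 20415 genes. Fold changes are BL over mock on the log2 scale, with SE from the quasi-likelihood F statistic, so low genes depend on the prior count. The floor was 3 counts per library. The steps were tested on simulated data. Promoters and symbols came from RefSeq TAIR10.1, with 32709 loci matched, and coordinates are of that build alone.

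The 10 largest rises and falls and the 5 largest CPM gains and losses (mean log2 CPM of at least 3), and up to 4 called members of each list (mean log2 CPM of at least 1), were named by rule, with adjusted p under 0.05 and no overlap between groups. All members of the BR and HLH lists could be named, as could genes not called. Members and lists were chosen with earlier results of these data known. The alternatives were library size and RLE scaling, other low-count filters, wild type libraries alone, robust spread, a replicate block, other thresholds, each library left out in turn, and DESeq2 1.42.0.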

Additional observations from a re-analysis of the deposited data

Results flagged for a closer look

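The response to BL was set against that of *iaa3* gene by gene, and 3589 genes (17.6% of those tested) differed between the genotypes by the interaction term of edgeR's quasi-likelihood test, at a Benjamini-Hochberg adjusted p under 0.05. Of these, 1050 rose in wild type and were more positive there than in *iaa3*, and 447 fell in wild type and were more negative there. The calls in wild type and the interaction term share the wild type libraries, so these directions are in part built in. The share of genes that differed was 69.8% of 43 arabinogalactan protein genes, 65.5% of 29 *XTH* genes, 62.1% of 29 aquaporin genes and 63.6% of 22 HLH genes. It was 26.5% of 68 *SAUR* genes, above the 17.6% over all tested genes, and members with low counts can miss the call. For *SAUR27*, a difference of 3.93 on the log2 scale was not called, with an adjusted p of 0.239 in the same edgeR test. That of *SAUR15*, 5.08, was called. Lower shares were 8.33% of 36 root hair genes, 8.58% of 233 ribosomal protein genes and 7.14% of 56 cell cycle genes. Of 15 tubulin genes 9 differed and of 7 BR biosynthesis genes 1. Heat shock and hypoxia genes also had high shares, with 59.2% of 71 and 92.9% of 14. For hypoxia, mock replicate 1 of wild type stood apart, at a summed 1620 CPM beside 478 CPM in mock replicate 2, and its part in this share was not tested.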

How the results depend on the processing

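In every alternative, 0 of the 2925 called genes changed direction. Other thresholds reuse the same fold changes, so no direction could change there. With the same thresholds and all wild type libraries, between 85.8% and 99.2% of the 2925 were still called. Fewer were kept when 1 wild type library was left out. The rule of 1.5-fold with adjusted p under 0.05 had to keep all 2925, as their highest adjusted p was 0.0348 in the edgeR test. A 2-fold threshold left 928 rises and 513 falls. Leaving out 1 wild type library gave 1560 to 1776 rises and 1010 to 1167 falls, and 2293 to 4137 genes in the interaction, the lowest without BL replicate 2. The difference between replicates 1 and 2 over tested genes had a correlation of 0.00276 between BL and mock. This single value cannot show whether libraries of equal replicate number shared a culture. The fit with a replicate block gave 1724 rises, 1215 falls and 3889 genes in the interaction. The genes *MP* (−0.58) and *HB1* (−1.21) were not called with the block. DESeq2 called 1567 rises and 981 falls, and the interaction 2616. Genes that were not called turned sign under some settings. When 1 library was left out, the log2 fold changes ranged between −0.098 (without mock replicate 2) and 0.34 for *UGT73C5*, between −0.14 and 0.12 (without mock replicate 1; 0.05 without BL replicate 2) for *SERK1*, between −0.16 and 0.067 (without BL replicate 2) for *BRL2*, and, with the lowest without mock replicate 2, between −0.19 and 0.32 for *BEH1* (−0.10 without BL replicate 2), −0.0086 and 0.27 for *BSL1*, −0.026 and 0.13 for *BSK1* and −0.020 and 0.12 for *BIM3*. With library size alone the values were −0.057 for *BEH1*, −0.056 for *BSK1* and −0.058 for *BIM3*. The causes were not tested. With 2 libraries per group, 1 library can decide a call near the threshold, and genes near the floor of 3 counts carry wide errors.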
